A study of Macaca mulatta with 6 samples.

Results

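The HOX cluster genes were followed in induced pluripotent stem cells (iPSCs) of the rhesus monkey. Members were the rows whose gene symbol was HOX, a cluster letter from A to D and a position number. There were 34 such rows for 33 symbols, since HOXD1 stood on 2 rows, among 17228 symbols and 30246 rows in all. The row with the higher mean was used for HOXD1. Of these, 32 are described: 9 of the HOXA cluster, 8 of HOXB, 8 of HOXC and 7 of HOXD. Sums by cluster or position are over these members and not over whole clusters.

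HOX genes encode homeodomain transcription factors that give cells of the embryo their place along the head-to-tail axis. Within a cluster, genes with low position numbers are switched on earlier and nearer the head than genes with high numbers, and retinoic acid and WNT signals are known to induce the first of them. In pluripotent stem cells the clusters are known as targets of Polycomb repression, and the HOX proteins bind DNA together with PBX and MEIS proteins.

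RNA was sequenced in 6 iPSC libraries, of which 2 were naive and male, 2 naive and female, and 2 primed and male. The 4 naive lines were grown in the medium labelled 6SM, which held KnockOut DMEM with 15% KnockOut serum replacement, N2 supplement, L-glutamine, NEAA (non-essential amino acids), 2-ME (2-mercaptoethanol), bFGF at 4 ng/ml, human LIF at 10 ng/ml, the GSK3 inhibitor CHIR99021 at 3 μM, the MEK inhibitor PD0325901 at 0.5 μM, the p38 inhibitor SB203580 at 10 μM and the JNK inhibitor SP600125 at 10 μM. Primed lines were grown in hESM, which is D/F12 with 20% KnockOut serum replacement and bFGF. Feeder cells had been taken away before colonies were collected, the series title names monkey fibroblasts as the source of the lines, and the labels give the stage as embryo. The labels tie no line to an animal or a clone. They do not say whether a number shared between a naive and a primed title means a shared line. The p-values below therefore measure only the spread between these libraries. No female primed line was analysed here, so sex and state cannot be told apart between female naive and primed lines. State and medium cannot be told apart in any comparison of naive with primed lines.

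Levels are in FPKM, which scales fragments to the transcript's length and to the mapped fragments of the library, so they can be set beside each other between genes. The effective fragments behind all values, estimated from the deposited bounds, summed to 1478692 and 1754857 in the male naive libraries and to between 7607125 and 10013491 in the other 4. POU5F1, the core pluripotency factor, lay between 109 and 1160 FPKM in all 6 libraries. NANOG was at 28.7 FPKM or more in the 4 naive libraries and at 0.933 and 2.09 FPKM in the primed ones, and TDGF1 was listed at 0 and at 0.818 FPKM in the primed ones, so these markers of pluripotent cells were nearly absent under the primed label. SOX2 stood at 85.3 to 141 FPKM throughout. In a bulk library, fewer cells that express a gene and less RNA of it per cell cannot be told apart. Among markers of other cell types, 15 fibroblast and feeder genes summed to 606 to 810 FPKM in the naive libraries, 763 FPKM in primed 1 and 1199 FPKM in primed 2, with DCN listed at 0 in both male naive libraries. The 9 neural genes summed to 189 to 311 FPKM in the naive libraries and to 290 and 262 FPKM in the primed ones, and NEUROG2 was listed at 0 in all 4 naive libraries. Most of that sum was NES, which was not tested because its estimate failed in female naive 2. Without NES, a choice made after the values were seen, the other 8 summed to 66.5 and 55.6 FPKM in male naive, 23.5 and 17.2 FPKM in female naive and 125 and 92.2 FPKM in the primed libraries, so that both primed libraries were above all naive ones. The 9 mesoderm genes summed to 14.4 to 32.7 FPKM in naive and to 4.24 and 3.40 FPKM in primed libraries, with MSGN1 listed at 0 throughout. The part of these cell types in the HOX values was not tested.

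The level of these 32 HOX genes differed between the 3 groups. Their sum was 14.1 and 10.1 FPKM in male naive 1 and 2, 3.61 and 1.82 FPKM in female naive 1 and 2, and 58.8 and 34.2 FPKM in primed 1 and 2. The 4 members described at positions 1 to 3 (HOXB1, HOXD1, HOXA2 and HOXA3) made up 70.9% and 59.7% of it in the male naive libraries. Their share was 24.6% and 26.0% in the female naive and 93.4% and 88.2% in the primed libraries. The 3 groups did not overlap in the sum, with female naive lowest and primed highest.

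By cluster, HOXB led in the male naive and primed libraries. Its 8 members summed to 9.18 and 5.16 FPKM in male naive, 0.858 and 0.0887 FPKM in female naive, and 28.4 and 16.2 FPKM in primed libraries. The 9 HOXA members summed to 2.40 and 2.19 FPKM in male naive, 1.43 and 0.341 FPKM in female naive, and 25.1 and 15.6 FPKM in primed libraries. HOXC stayed at or under 1.86 FPKM and HOXD at or under 1.20 FPKM in every library but primed 1, where HOXD reached 4.62 FPKM.

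**Figure D1:**
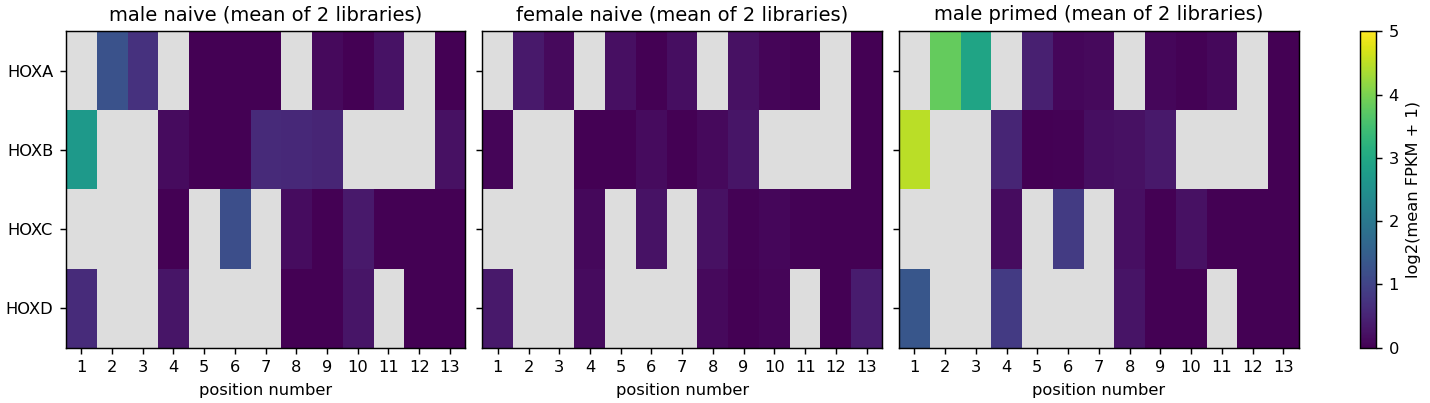
Group mean FPKM of each HOX gene, shown by colour as log2(mean FPKM + 1), with clusters as rows and position numbers as columns, for 2 libraries per group; grey fields hold no value described here. The brightest fields sit at positions 1 to 3, led in primed lines by HOXB1 at 21.3 FPKM and HOXA2 at 13.1 FPKM, while HOXB1 had a mean of 5.46 FPKM in male naive lines.

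Only 4 of the 32 reached the level for testing, which was 1 FPKM or more in at least 2 libraries: HOXA2, HOXA3, HOXB1 and HOXC6. The other 28 fell under it, so that counts below are over 4 genes and not over the family. Each of the 4 entered the test through the libraries in which it was high. HOXA3 reached 1 FPKM in the primed libraries alone, so the filter fixed its place below primed lines in advance. Its calls against primed lines are therefore no support for a fall.

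HOXB1, which sets the identity of the hindbrain segment that gives rise to the facial nerve, stands on chromosome 16 from 32758427 to 32759792 (ENSMMUG00000022212; coordinates here are those of the files, whose genome build is not given in the sources used here). Its level was 7.55 and 3.37 FPKM in male naive, 0.101 FPKM and listed at 0 in female naive, and 27.4 and 15.2 FPKM in primed libraries. The 3 groups did not overlap, with primed highest and female naive lowest. Means were 5.46 ± 2.96 (SD, n = 2) FPKM in male naive and 21.3 ± 8.58 (SD, n = 2) FPKM in primed lines. In male naive libraries 38.0% and 22.2% of the tested rows were below HOXB1, against 74.9% and 59.3% in primed libraries. HOXB1 stood 5.14 and 2.57 times above HOXA2 in the male naive libraries and 1.88 and 1.3 times above it in primed 1 and 2. HOXB1 was at 0.257 times HOXA2 in female naive 1 and listed at 0 in female naive 2. These values rest on 1 and 0 effective fragments for HOXB1 and on 5 and 2 for HOXA2. The order of the genes in female naive lines is therefore not settled. In the male naive libraries the HOXA2 values rest on 4 and 3 effective fragments, so the ratios there are rough.

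HOXA2, which patterns the hindbrain and the second pharyngeal arch, stands on chromosome 3 from 99123521 to 99125289 (ENSMMUG00000012812). Its level was 1.47 and 1.31 FPKM in male naive, 0.394 and 0.130 FPKM in female naive, and 14.6 and 11.7 FPKM in primed libraries. Both primed libraries were far above all 4 naive ones, and the primed pair differed by 1.24 times. HOXA3, which is needed for the thymus and parathyroid, stands next to it from 99098951 to 99119773 (ENSMMUG00000012813), with 0.578 and 0.686 FPKM in male naive, 0.186 FPKM and listed at 0 in female naive, and 10.0 and 3.01 FPKM in primed libraries. Again both primed libraries were above all naive ones, and primed 1 stood 3.33 times above primed 2.

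HOXC6, a gene of the thoracic region, stands on chromosome 11 from 51127327 to 51128826 (ENSMMUG00000006536). Its level was 1.17 and 1.40 FPKM in male naive, 0.252 and 0.104 FPKM in female naive, and 0.312 and 1.33 FPKM in primed libraries. Both female naive values were below all the others, and primed 2 stood beside the male naive libraries. These values rest on 1 to 10 effective fragments each.

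**Figure D2:**
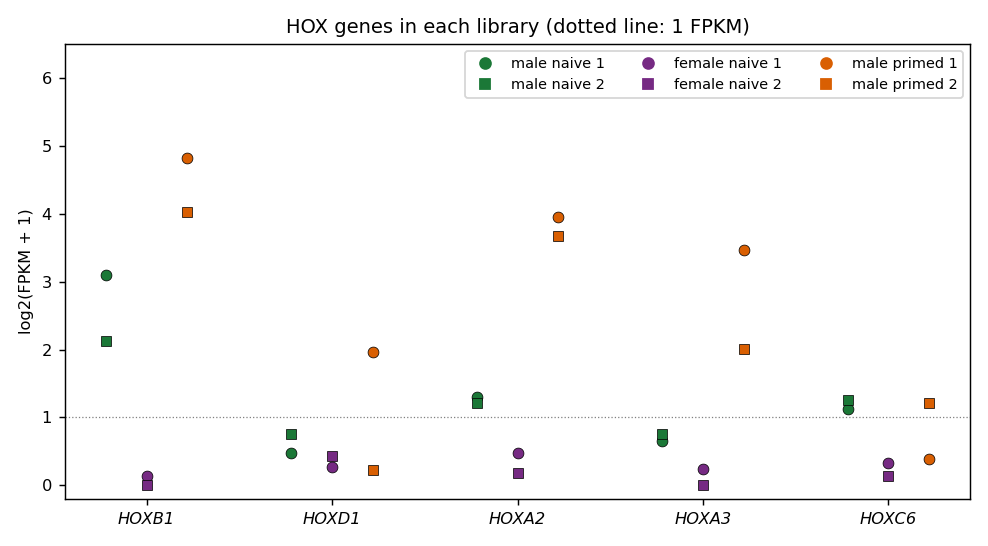
FPKM of HOXB1, HOXD1, HOXA2, HOXA3 and HOXC6 in each of the 6 libraries, on a log2(FPKM + 1) axis; each dot is 1 library and the dotted line marks 1 FPKM. HOXB1 stands at 3.37 and 7.55 FPKM in male naive and at 15.2 FPKM or more in primed libraries but at 0.101 FPKM or less in female naive libraries, and HOXA2 is at 11.7 FPKM or more only in the primed ones.

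Naive and primed lines were compared first, with the mean of the 2 naive groups set against the primed mean. Naive lines had less HOXA2, HOXA3 and HOXB1 RNA. In limma's test on log2(FPKM + 1), with p-values adjusted over 13685 rows, 3 of the 4 HOX genes fell and none rose. That count includes HOXA3, which was tested through the primed libraries alone. Of all rows, 11.3% were called at an adjusted p under 0.05, 4.59% lower in naive and 6.72% higher. That is 920 rows higher and 628 lower, which became 693 and 878 after upper-quartile scaling and 741 and 739 after quantile normalization.

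HOXB1 fell by 3.08 (SE 0.36, adjusted p = 0.0102) and HOXA2 fell by 3.02 (SE 0.22, adjusted p = 0.00439), both on the log2(FPKM + 1) scale. HOXA3 fell by 2.32 (SE 0.42, adjusted p = 0.0263). The difference for HOXC6 was -0.09 (SE 0.31, adjusted p = 0.87). HOXA2, HOXA3 and HOXB1 were lower in all 4 naive libraries than in either primed one, as were 15.9% of all rows.

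The HOXA3 call was lost when any library other than primed 2 was left out (adjusted p 0.0697 to 0.0886), and the HOXB1 call was lost without primed 1 (0.0579). HOXA2 was called without each of the 6 libraries in turn (0.016 to 0.0354).

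Markers of other cells moved in the same comparison, where 11.3% of all rows were called. Of 6 tested neural genes ZNF521, NCAM1 and MAP2 fell in naive lines and none rose, and PAX6 stood at 0.313 to 4.25 FPKM in naive libraries and at 14.2 and 6.53 FPKM in primed ones. Of 13 tested fibroblast and feeder genes VIM fell and none rose. Of 4 tested mesoderm genes KDR and EOMES rose, and of 6 pluripotency genes NANOG, TDGF1, DPPA4 and POU5F1 rose. With each library left out in turn, the 4 pluripotency calls held throughout, that of KDR was lost without 1 library, and those of ZNF521 and NCAM1 were lost without 3, of MAP2 and EOMES without 4 and of VIM without 5. Their part in the HOX differences was not tested.

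Male naive lines were then set against male primed lines, within 1 sex. State, medium and library depth differed together here and cannot be told apart. HOXA2 fell, and the other 3 genes did not pass the test. With 1 of the 4 HOX genes called, against 5.39% of all rows (1.42% lower and 3.97% higher in naive, or 195 and 543 rows, and 357 and 391 after upper-quartile scaling, 294 and 399 after quantile normalization), HOXA2 fell by 2.56 (SE 0.26, adjusted p = 0.00779, limma). The ratio of the primed mean to the male naive mean was 9.45 for HOXA2 and 3.90 for HOXB1.

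HOXA3 differed by -2.03 (SE 0.49, adjusted p = 0.0673) and HOXB1 by -1.81 (SE 0.41, adjusted p = 0.0608), while HOXC6 differed by 0.39 (SE 0.36, adjusted p = 0.542). HOXA2, HOXA3 and HOXB1 were lower in both male naive libraries than in both primed ones, as were 21.6% of all rows. The HOXA2 call was lost without male naive 1 (adjusted p = 0.0558) or male naive 2 (adjusted p = 0.0672), and HOXA3 was called without primed 2 (adjusted p = 0.0247). The male naive HOXA2 and HOXA3 values rest on 3 to 4 effective fragments each.

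Female naive lines were set against the same primed libraries, at similar depth. HOXA2, HOXA3 and HOXB1 fell, and the primed mean of HOXA2 was 50.2 times the female naive mean. The 3 calls among the 4 HOX genes stand beside 11% of all rows called, 5.41% lower and 5.55% higher in female naive lines. All 4 were lower in both female naive libraries than in both primed ones, as were 31.9% of all rows.

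On the log2(FPKM + 1) scale, HOXB1 fell by 4.35 (SE 0.41, adjusted p = 0.00758, limma). HOXA2 fell by 3.49 (SE 0.26, adjusted p = 0.00382) and HOXA3 fell by 2.61 (SE 0.49, adjusted p = 0.0266). HOXC6 differed by -0.57 (SE 0.36, adjusted p = 0.334). Leaving out female naive 2 ended the call of HOXB1 (adjusted p = 0.0653), and by leave-one-out HOXA3 was called only without primed 2 (0.0149).

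Within the naive medium, female lines were set against male lines. HOXB1 fell in female lines, where it was listed at 0 or at 0.101 FPKM. This 1 call among the 4 HOX genes stands beside 3.31% of all rows called, 2.55% lower and 0.76% higher in female lines (349 and 104 rows, and 223 and 118 after quantile normalization). All 4 were lower in both female libraries than in both male ones, as were 37.6% of all rows, with the male libraries the shallower.

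HOXB1 fell by 2.54 (SE 0.41, adjusted p = 0.0353, limma). HOXA2 differed by -0.93 (SE 0.26, adjusted p = 0.111), HOXC6 by -0.96 (SE 0.36, adjusted p = 0.197) and HOXA3 by -0.58 (SE 0.49, adjusted p = 0.544). The HOXB1 call was lost when any 1 of the 4 naive libraries was left out (adjusted p 0.0805 to 0.204), with a pseudocount of 5 (0.11) and with no filter on low values (0.0773).

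**Figure D3:**
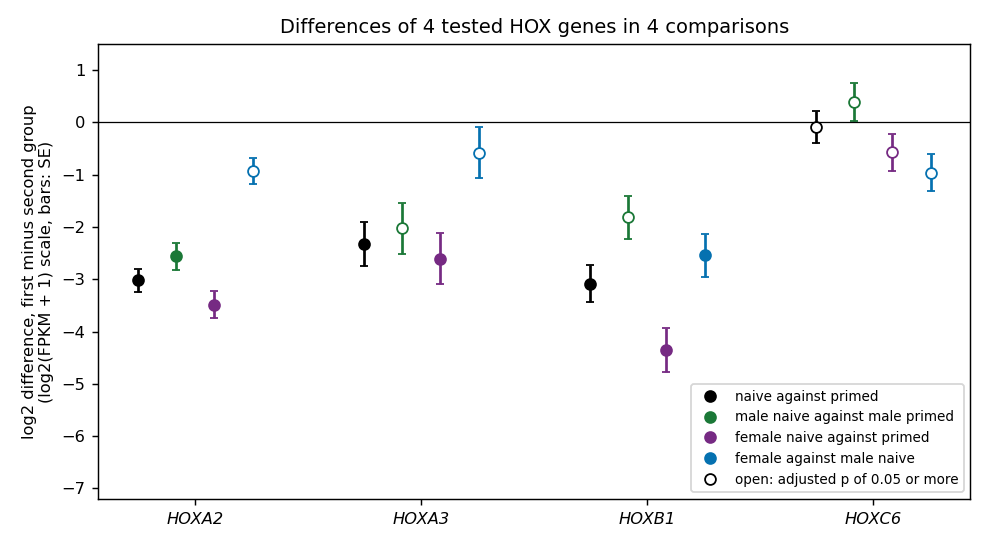
Differences of HOXA2, HOXA3, HOXB1 and HOXC6 in the 4 comparisons, on the log2(FPKM + 1) scale, as the fitted value with its SE; filled points were called at an adjusted p under 0.05 and open points were not. HOXA2 lies at -2.56 and -3.49 in male and female naive against primed lines, and HOXB1 at -1.81 and -4.35.

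The 4 comparisons share libraries, so their values are not independent. Whether the difference between naive and primed lines depends on sex cannot be tested, since all primed libraries were male. Male and female naive lines were set against the same primed libraries, so their differences from primed lines differ only by the female against male naive contrast. In that contrast HOXB1 was called and HOXA2 and HOXA3 were not.

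The 28 members under the level for testing rest on few fragments. Of these, 6 were listed at 0 in all 6 libraries: HOXA13, HOXB5, HOXC12, HOXC13, HOXD9 and HOXD12. The HOXD9 row is a short one on an unplaced scaffold. The highest value among the 28 was 2.91 FPKM, for HOXD1 in primed 1, and only HOXD1 and HOXD4 reached 1 FPKM in any library.

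HOXD1, the member of the first position in the HOXD cluster, stood at 0.387 and 0.689 FPKM in male naive, 0.208 and 0.342 FPKM in female naive, and 2.91 and 0.175 FPKM in primed libraries. HOXD4 was at 0 and 0.446 FPKM in male naive, 0.161 and 0.0664 FPKM in female naive, and 1.53 and 0.0848 FPKM in primed libraries. Both were high in primed 1 alone, where their ratios to primed 2 were 16.6 and 18.0. The other row with the HOXD1 symbol (ENSMMUG00000022277) is in none of the sums. It stands on chromosome 12 from 39805605 to 39814746, between HOXD4 and the HOXD1 row used here. No row carries the symbol HOXD3, and whether this row measures HOXD1 or another gene was not settled. It was at 0.327 FPKM and listed at 0 in male naive, and at 0.211 FPKM and listed at 0 in female naive. In primed libraries it was at 2.12 and 0.519 FPKM, both above all naive values. HOXB4, known for its part in blood stem cells, was at 0.680 FPKM in primed 1 and 0.183 FPKM in primed 2, at 0.202 FPKM in male naive 1 and listed at 0 in the other 3 naive libraries.

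Positions 4 to 13 held 28 members, of which 26 stayed under 1 FPKM everywhere, the exceptions being HOXC6 and HOXD4. Their summed level was 4.10 and 4.08 FPKM in male naive, 2.72 and 1.34 FPKM in female naive, and 3.89 and 4.03 FPKM in primed libraries. The 2 female naive sums were again the lowest, but the 6 sums lay within 1.34 and 4.10 FPKM, whereas those of positions 1 to 3 ran from 0.472 to 54.9 FPKM. HOXB9 was above 0 in all 6 libraries, from 0.0296 FPKM in primed 1 to 0.669 FPKM in male naive 1, and HOXD13, which shapes the digits, was found only in female naive 2, at 0.613 FPKM. The HOXB6 row spans the positions of HOXB4 and HOXB5, so its values are uncertain. The number of members above 0 per library ran from 12 to 21. A member listed at 0 in the shallow male naive libraries is not shown to be silent there, since 1 fragment is worth more FPKM in them.

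The primed pair differed in the HOX sum, at 58.8 FPKM in primed 1 and 34.2 FPKM in primed 2. The members did not move together, as 9 of the 17 above 0 in both were higher in primed 1. Several of the 17 rest on few effective fragments, such as 1 and 1 for HOXA7. Primed 1 over primed 2 was 1.80 for HOXB1 and 3.33 for HOXA3. HOXB9 went the other way, with a ratio of 0.0602, on 1 and 13 effective fragments. In the same libraries COL1A1, a fibroblast collagen, was at 9.24 FPKM in primed 1 and 135 FPKM in primed 2; the part of this in the HOX values was not tested.

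Genes that act with HOX proteins or upstream of them were described from lists chosen with results of these data known. Of 9 TALE cofactors, 8 were tested, and 3 fell in naive against primed lines (MEIS2, PKNOX2 and MEIS3) while none rose. Of all rows, 4.59% were called lower in naive lines and 6.72% higher. MEIS2, a DNA-binding partner of HOX proteins, was at 11.3 and 9.10 FPKM in male naive, 3.62 and 0.989 FPKM in female naive, and 76.0 and 50.7 FPKM in primed libraries, and fell by 3.44 (SE 0.36, adjusted p = 0.00966, limma), a call lost without primed 1 (0.0564). MEIS2 also fell in male naive against primed lines, by 2.50 (SE 0.42, adjusted p = 0.0296), a call lost without any 1 of those 4 libraries. PKNOX2 and MEIS3 each lost their call without 4 of the 6 libraries. The median difference of the 8 was -1.05 between naive and primed lines, beside 0.03 over all rows tested.

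Of 15 genes of the retinoic acid pathway in the files, 10 were tested. In naive against primed lines 5 of the 10 were called, beside 11.3% of all rows. CRABP1 and CRABP2, which bind retinoic acid in the cell, STRA6, which takes up retinol, and RARB, a receptor that is itself induced by retinoic acid, fell in naive against primed lines, and RARG rose. CRABP1 was at 60.7 and 54.6 FPKM in male naive, 10.9 and 20.4 FPKM in female naive, and 408 and 634 FPKM in primed libraries, all 4 naive libraries being lower. RARB was at 2.34 and 0.694 FPKM in male naive, 0.877 and 0.982 FPKM in female naive, and 29.5 and 6.80 FPKM in primed libraries. CRABP1 was called without each library in turn, the RARB call held only without primed 2, and CRABP2, STRA6 and RARG lost theirs without 4, 6 and 6 of the 6 libraries. Between male naive and primed lines CRABP1 alone was called of the 10, lower in naive, beside 5.39% of all rows called.

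Of 6 tested hindbrain regulators, FGF3 was called lower in naive against primed lines and none was called higher, beside 11.3% of all rows called. The list did not fall as a set, with a median difference of 0.36. OTX2, which was not called, stood higher in naive lines, by 3.23 (SE 0.95, adjusted p = 0.0793, limma). It was at 15.0 and 28.3 FPKM in male naive and 72.2 and 18.3 FPKM in female naive libraries. In primed 1 and 2 OTX2 was listed at 0 and at 8.21 FPKM. FGF3, a signal of the hindbrain, was at 0.642 and 0.764 FPKM in male naive, 0.138 FPKM and listed at 0 in female naive, and 24.2 and 10.1 FPKM in primed libraries, and fell by 3.63 (SE 0.36, adjusted p = 0.00824, limma). FGF3, like HOXA2, was low in naive lines of both sexes, and its naive values rest on 1 or 0 effective fragments each. It was under 1 FPKM in every naive library, so it was tested through the primed libraries alone. Its place below primed lines was therefore fixed by the filter, and its call is no support for a fall.

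Of the posterior axis list, 10 were tested. AXIN2, a direct target of WNT signalling, was at 34.4 and 33.9 FPKM in male naive, 5.28 and 3.45 FPKM in female naive, and 76.4 and 29.2 FPKM in primed libraries. SP5, another WNT target, was at 43.7 and 45.6 FPKM in male naive, 2.66 and 0.453 FPKM in female naive, and 59.1 and 22.7 FPKM in primed libraries. Both had male naive values between the primed ones and low female naive values. AXIN2, SP5 and SP8 fell in female against male naive lines, calls that were lost without any 1 of the 4 naive libraries. Of all rows, 3.31% were called there, 2.55% lower in female lines. AXIN2 was the only one of the list to fall in naive against primed lines, where none rose, and its call held only without primed 2. In that comparison 11.3% of all rows were called.

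No gene of the CDX and ParaHox list was called by limma, with 3 of 6 tested. At an unadjusted p under 0.05, 1 differed between male naive and primed lines, 2 between female and male naive lines, and 0 in the other comparisons. Of all rows, 25.7% and 21.7% were at such a p in the former pair of comparisons and 30.9% and 30.6% in naive and female naive against primed lines. CDX1, a regulator of HOX genes, was at 30.9 and 42.4 FPKM in male naive, 1.21 and 1.72 FPKM in female naive, and 26.5 and 0.462 FPKM in primed libraries, and differed by -3.93 between female and male naive lines (adjusted p = 0.143, limma). CDX2 stood at 0.188 to 12.7 FPKM and CDX4 at 3.45 to 18.0 FPKM over the 6 libraries.

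**Figure D4:**
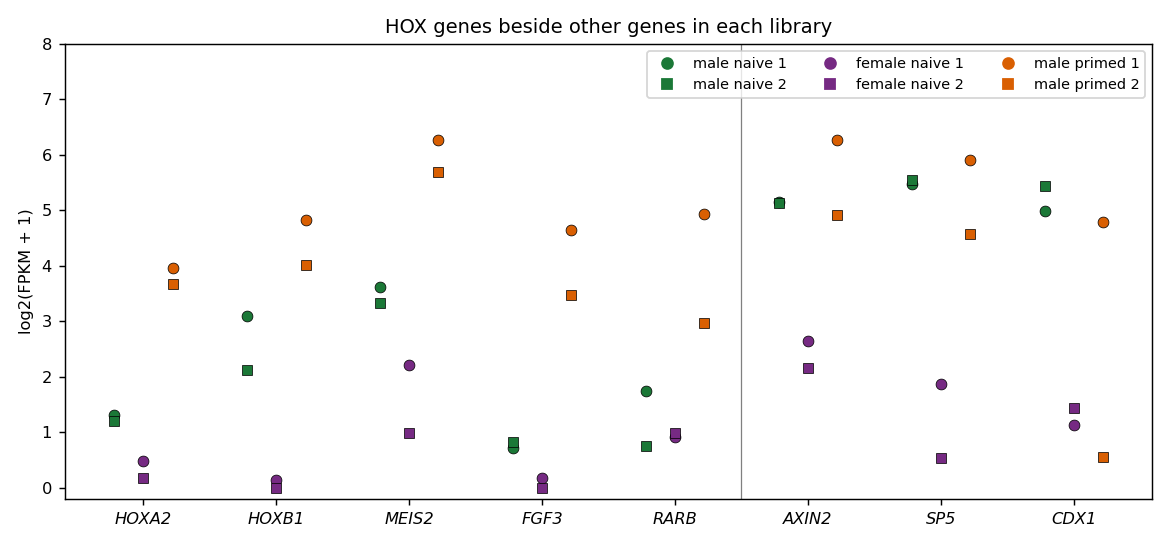
FPKM per library, on a log2(FPKM + 1) axis, of HOXA2 and HOXB1 with MEIS2, FGF3 and RARB and, right of the line, of AXIN2, SP5 and CDX1; the genes were set side by side after their values were seen. AXIN2 and SP5 are at 5.28 FPKM or less in female naive libraries, and FGF3 and HOXA2 are at 1.47 FPKM or less in all 4 naive libraries.

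Among 27 tested genes of the Polycomb group, which hold HOX clusters silent, PHC1 and JARID2 rose in naive against primed lines and PHC2, CBX8 and EZH1 fell. These 5 calls among the 27 stand beside 11.3% of all rows called. PHC1 was at 51.1 and 52.6 FPKM in male naive, 90.7 and 133 FPKM in female naive, and 27.2 and 25.2 FPKM in primed libraries. EZH2, the main H3K27 methyltransferase, was at 73.5 and 67.6 FPKM in male naive, 32.4 and 33.8 FPKM in female naive, and 67.8 and 63.0 FPKM in primed libraries, and fell in female against male naive lines, where the call was lost without any 1 of the 4 naive libraries. PHC1 kept its naive against primed call without every library but primed 1, while JARID2 lost its call without 4 and PHC2 without 5 of the 6, and CBX8 and EZH1 without each library in turn. The median difference of the list between naive and primed lines was -0.15. None of 18 tested Trithorax genes and H3K27 demethylases, which oppose Polycomb, was called by limma in any of the 4 comparisons. At an unadjusted p under 0.05 they numbered 4, 0, 7 and 2 in naive, male naive and female naive against primed lines and in female against male naive lines, where the shares of all rows were 30.9%, 25.7%, 30.6% and 21.7%.

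Genes that flank the clusters but are no HOX genes were described as well. EVX1, EVX2 and PRAC1, which lie in or beside the clusters, did not reach the level for testing. The unnamed row inside the HOXB cluster, described below, fell by 3.46 in naive against primed lines. The list therefore cannot show whether EVX1, EVX2 or PRAC1 moved. TTLL6, which lies past HOXB13, was tested and differed by -0.006 in naive against primed lines (SE 0.37, adjusted p = 0.994, limma). It stood at 2.78 FPKM or less in every library. Of 20 tested, NFE2 rose in naive against primed lines and none fell, beside 11.3% of all rows called. None was called by limma between male naive and primed lines, where 4 were at an unadjusted p under 0.05, as were 25.7% of all rows. In female naive against primed lines, where 11% of all rows were called, NFE2 rose. SKAP2 fell by 1.31 (SE 0.20, adjusted p = 0.0166) and ATF2 fell by 0.60 (SE 0.13, adjusted p = 0.0417, limma) there. These calls were lost without 3 libraries for NFE2, 3 for SKAP2 and 6 for ATF2 when each of the 6 was left out in turn. SKAP2, beside the HOXA cluster, was at 39.9 and 30.5 FPKM in male naive, 12.05 and 9.42 FPKM in female naive, and 29.9 and 26.1 FPKM in primed libraries, and fell in female against male naive lines, a call lost without any 1 of the 4 naive libraries. The NFE2 call in naive against primed lines held without only 1 of the 6 libraries. The median difference of the 20 between naive and primed lines was -0.03. On the same scale and comparison the medians were -0.42 for the retinoic acid list, 0.36 for the hindbrain regulators, 0.34 for the posterior axis list, 0.59 for the CDX and ParaHox list and -0.10 for the Trithorax list.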

How the data were processed

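RNA was sequenced in 6 libraries, 2 per group. The submitters' processing notes name TopHat 1.3.0; the tables have the layout of Cufflinks gene tracking output, per the file headers. FPKM was computed by the authors per library and deposited with bounds and a status; no scaling between libraries is stated, and for the build, annotation and quantifier the sources used here give nothing. Effective fragments are (2 × FPKM / (upper bound - FPKM)) squared, the bounds lying 2 SD from FPKM, and cover counting error only. Per tested row their median was 33.2 and 40 for male naive libraries, 179 to 225.1 for the rest.

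Rows with 1 FPKM or more in at least 2 libraries were tested (13685); 10 more were left out for their status. On log2(FPKM + 1), a scale that understates the change of low genes, models were fitted in limma 3.58.1 (R 4.3.3) with a mean per group, a trend, two-sided tests and Benjamini-Hochberg adjustment. The comparisons were naive, male naive and female naive against primed, and female against male naive. Tables and plots were made with Python 3.11.15, pandas 2.3.3 and matplotlib 3.10.9, and the fits were tested on simulated data. Alternatives were other pseudocounts, filters, scalings and weights, fits to the compared groups alone, naive lines as 1 group, a block on the line number, the sum over rows that share a symbol, and leaving out libraries.

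The members and lists were chosen with earlier results of these data known. Of the HOX symbols, 1 is not reported here, nor are some list genes; they stayed in the fit, and sums and counts leave them out. Named were the tested HOX genes, and per list up to 4 called genes by smallest p, with CDX1, CDX2 and CDX4. Others (RARG, EZH1, COL1A1, OTX2, EVX1, EVX2, PRAC1, TTLL6 and markers of state) were named after their values were seen.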

Additional observations from a re-analysis of the deposited data

Results flagged for a closer look

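A row without a gene symbol, ENSMMUG00000022211, lies on chromosome 16 from 32772168 to 32772592 in the coordinates of the files, and is no member by symbol. It stands between HOXB1 and HOXB4, before the start of the long HOXB6 row. No row carries the symbol HOXB2 or HOXB3, and which gene this row belongs to was not settled. It drew attention because a signal appeared in data outside the HOX symbols. It was at 4.31 and 5.17 FPKM in male naive, 0.922 FPKM and listed at 0 in female naive, and 39.5 and 22.9 FPKM in primed libraries. Both primed libraries were above all 4 naive ones, and the male naive values rest on 3 effective fragments each. The row fell by 3.46 in naive against primed lines (SE 0.35, adjusted p = 0.00859, limma) and fell by 2.44 in male naive against primed lines (SE 0.40, adjusted p = 0.0275). Between female and male naive lines it differed by -2.05 (SE 0.40, adjusted p = 0.0549).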

How the results depend on the processing

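HOXA2 kept its naive against primed call under all 16 alternatives, HOXB1 under 14 and HOXA3 under 8. The count of called HOX genes in naive against primed lines was 3, against 1 with naive lines as 1 group and sex ignored, and 1 to 3 with a library left out. Male naive against primed gave 1 (0 to 2 with a library left out), female naive against primed 3 (1 to 3), and female against male naive 1 (0 to 1), the last being 0 with a pseudocount of 5 and 0 with no filter. The cause of these changes was not tested. The summed count of called list genes was 16, 5, 20 and 8 in the 4 comparisons; naive against primed gave 2 with sex ignored and 4 to 16 with a library left out, male naive against primed 2 with a pseudocount of 0.1, 2 with no filter and 0 to 6, female naive against primed 31 with precision weights and 3 to 28, and female against male naive 3 with no filter, 5 with upper-quartile scaling and 0 to 12. In male naive lines the HOXA and HOXC sums were 2.29 and 1.67 FPKM, and 2.14 and 1.56 FPKM with upper-quartile scaling. Directions turned only where no call stood: HOXC6 ran from -0.50 to 0.32 with a library left out in naive against primed lines, and from -0.026 to 0.80 in male naive against primed lines.

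Over all rows, upper-quartile scaling moved the median difference by -0.15 in male naive against primed lines and by 0.11 in female against male naive lines. The calls over all rows numbered 1548, 738, 1499 and 453 in the 4 comparisons and 941, 400, 974 and 268 with no filter, and were 250 with sex ignored in naive against primed lines, 348 and 625 with the compared groups alone in male and female naive against primed lines, and 2582 with precision weights in female naive against primed lines. With a library left out they ran from 177 to 1081, 51 to 626, 96 to 1283 and 41 to 523. Libraries with the same number in the titles did not deviate together (correlations of -0.06, -0.05 and -0.26), and with a replicate block the HOX calls numbered 3, 1, 3 and 1 as before, the list calls 14, 4, 16 and 5, and the calls over all rows 812, 373, 798 and 207. The male naive libraries limit what can be said of genes under a few FPKM.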
